A study of Mus musculus with 6 samples.

Results

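Chromatin accessibility at day 10 of differentiation was compared with day 0 in ATDC5, a mouse line of prechondrocytes. The comparison uses 4 of the 6 libraries of the series, 2 named Day0 and 2 named Day10, each pair labelled as independent biological replicates. Per the labels, cells of both groups were plated as dense droplets and differentiation was driven by beta-glycerophosphate with ascorbate-2-phosphate. The Day0 libraries carry the treatment label control and the Day10 libraries the label differentiation, and no allele or other agent is given for either. All libraries come from a single cell line, which limits them as a model of cartilage in the animal. The deposited data are intervals with no RNA or gene names, so the labelled cell type could not be checked against marker genes.

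ATAC-seq uses the Tn5 transposase, which cuts DNA where nucleosomes and other proteins leave it exposed, and a peak marks a place with many such cuts. Active promoters and enhancers are usually open in this sense, and the set of open enhancers differs between cell types. In cartilage formation, mesenchymal precursors condense and turn on SOX9, which acts with SOX5 and SOX6 at enhancers of matrix genes such as Col2a1 and Acan. ATDC5 cultures are widely used as a cell model of these steps.

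The Day0 libraries listed 164237 and 164579 peaks on chromosomes 1 to 19 and X, and the Day10 libraries listed 380813 and 389571. Depth estimated from the peak scores was higher at Day10, 1.96 times the value of Day0 replicate 1 in each library. Equal numbers of peaks were therefore compared, the 50000 with the highest authors' fold over background in each library. Their intervals, merged where they overlapped, gave 69459 regions. A separate merge over all 6 libraries of the series gave 73933. A region was gained when one of the 50000 strongest peaks overlapped it in both Day10 libraries and none of the 100000 strongest overlapped it in either Day0 library. A lost region met the mirrored rule, and a kept region had one of the 50000 strongest peaks in all 4 libraries. Overlap of intervals decided presence, wherever the summit lay. Positions are those of the lists, with the first base of a chromosome as 1, and are taken to be in the GRCm39 build. Regions are named by position, with no gene assigned, because an annotation of GRCm39 was not used here.

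Between day 0 and day 10, 8398 regions were gained (12.1% of all regions) and 6284 were lost (9.05%), while 29742 (42.8%) were kept. Gained regions covered 5.89 megabases and lost regions 2.92 megabases. The median region width was 607 bases for gained, 431 for lost and 929 for kept regions. Gained intervals come from Day10 peaks and lost intervals from Day0 peaks, and Day10 peaks were wider at equal rank. The other 25035 regions lay between these classes. Of those, 9611 were strong at day 0 and of intermediate rank at day 10, and 7433 were of intermediate rank at day 0 and strong at day 10. Within a day, no region was among the 50000 strongest in 1 library and outside the 100000 strongest in the other, at Day0 or at Day10. The counts carry no p-value, since 2 libraries are set against 2. Rank 100000 fell at an authors' fold of 7.57 and 7.51 at Day0 and 10.1 and 10.2 at Day10. Absence was thus not judged at an equal fold on the 2 days.

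Within a day, the recovered pileups of the 2 libraries differed by less than Poisson counts would. The variance of the difference between the Day0 libraries, in recovered pileups, was 0.165 to 0.294 times the Poisson value across pileup classes, and between the Day10 libraries it was 0.125 to 0.243 times. How this came about was not tested. Each pileup is that of the best peak in a region, and such a maximum need not vary as a Poisson count does. The labels call the replicates independent, but the spread between them may be technical, and a pair may count for no more than 1 sample. Both values are therefore given throughout.

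Gained regions were mostly places with no listed peak at day 0. Of the 8398, 5767 (68.7%) were absent from both Day0 lists, 636 were listed in 1 of them and 1995 (23.8%) in both. Their best peaks had a median authors' fold of 22.5 and 23.2 in the Day10 libraries. Where a Day0 peak was listed, its median fold was 5.83 and 5.78. For the 1995 regions listed in all 4 libraries, the median ratio of Day10 to Day0 fold was 4.02, and the middle 80% of ratios lay between 3.02 and 5.76.

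Lost regions more often left a weak peak behind. Of the 6284, 958 (15.2%) had no listed peak in either Day10 library and 4959 (78.9%) were listed in both. Their median fold was 22.7 and 23.1 in the Day0 libraries and 6.72 and 6.51 in the Day10 libraries where listed. The median ratio of Day0 to Day10 fold was 3.61 in the 4959 regions, with the middle 80% between 2.42 and 5.70. The Day10 lists are longer and deeper than the Day0 lists, so the shares of gained and lost regions that stayed listed do not compare like with like. Nor do the median ratios, which the rule bounds. Absence reached up to a fold of 7.57 and 7.51 at Day0 but 10.1 and 10.2 at Day10.

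**Figure D1:**
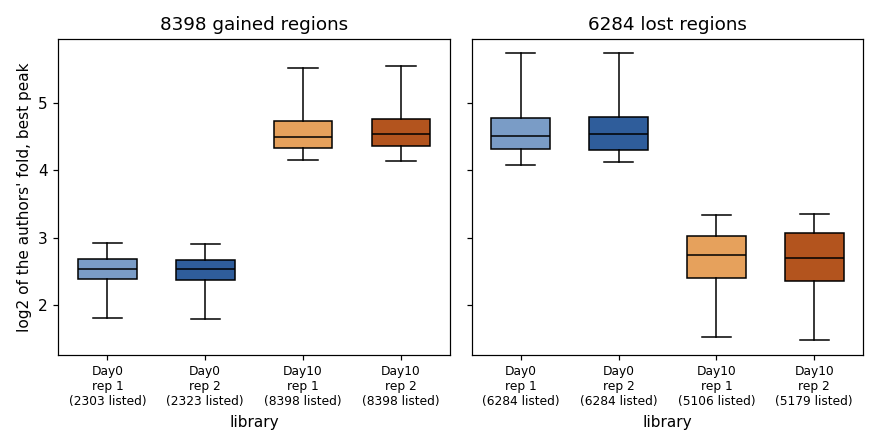
Log2 of the authors' fold of the best overlapping peak in each of the 4 libraries, for gained regions (left) and lost regions (right). Boxes span the quartiles with the median as a line, whiskers reach the lowest and highest value, and regions with no listed peak are left out, as the counts under each box show. The ranges of the 2 days do not overlap in either panel because the rule sets them apart.

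Strong regions changed less often than weak ones in both directions. Among the 4126 regions whose poorer Day10 rank was within 5000, 80 (1.94%) were gained, and among the 9047 with a poorer rank from 40001 to 50000, 2838 (31.4%) were gained. Among the 4159 regions within rank 5000 in both Day0 libraries, 10 (0.24%) were lost, and among the 9169 in the last class, 2643 (28.8%) were lost. In each of the 6 rank classes the share gained was above the share lost. The rule itself asks a top region to move further in rank than a region near 50000.

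**Figure D2:**
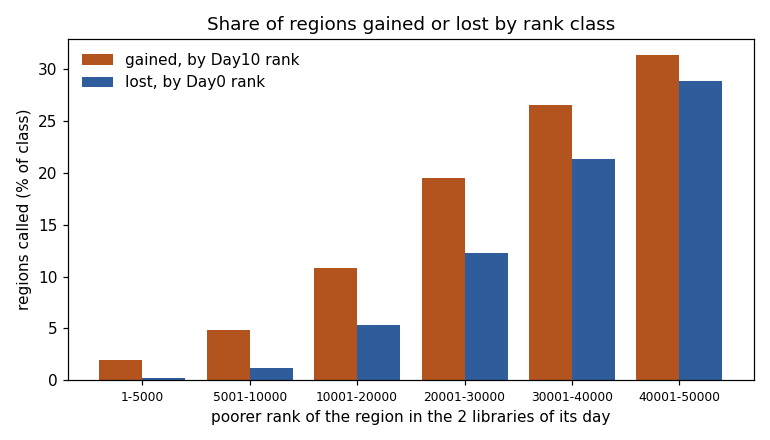
Percent of regions called gained (by Day10 rank) or lost (by Day0 rank) in 6 rank classes, each region placed by the poorer of its ranks in the 2 libraries of that day. The share gained climbs from 1.94% to 31.4% and the share lost from 0.24% to 28.8%.

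The 10 gained regions with the best ranks were broad peaks that ranked within 1349 in both Day10 libraries. The first lay on chromosome 17 from 32011996 to 32013413. Neither Day0 library listed a peak there, and at Day10 it ranked 542 and 488 with an authors' fold of 45.1 and 46.5. Close by on that chromosome lay another of the 10, from 31999835 to 32002277. It too was absent from the Day0 lists and ranked 1271 and 861 at Day10.

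One gained region, on chromosome 4 from 114635966 to 114637891, had a peak of 88 and 159 bases at Day0, with a fold of 4.08 and 4.62. At Day10 a peak of 1568 and 1926 bases stood there with a fold of 44.1 and 45.1. This was a weak site on day 0 that became one of the strongest on day 10. The chromosome 11 region from 100577674 to 100579872 was listed at Day0 in replicate 2 alone, with a fold of 4.04, and had a fold of 45.6 and 44.6 at Day10. On chromosome 14, 2 of the 10 regions lay within a single megabase, from 25206815 to 25208506 and from 25679298 to 25681318. The first was absent from the Day0 lists and had a fold of 43.2 and 44.6 at Day10, and the second was listed in Day0 replicate 1 alone, at a fold of 4.66, and reached 43.7 and 44.2.

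The other 4 regions were absent from both Day0 lists. The region on chromosome 19 from 47401774 to 47404219 was the widest of the 10 and had a fold of 43.7 and 45.5 at Day10. The chromosome 5 region from 150174314 to 150176106 had a fold of 44.6 in both Day10 libraries, and that from 124590043 to 124592408 had a fold of 42.7 and 45.1. The chromosome 17 region from 48135483 to 48136558 had a fold of 45.6 and 44.2. None of the 10 regions had a Day0 fold above 4.66 in either library.

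The 10 lost regions with the best ranks were narrower, but this sets Day0 peaks against Day10 peaks, which were wider at equal rank. All 10 lost regions still held a listed peak at Day10. Their calls depend on the limit for absence. With a common fold 6 of the 10 were called lost, with a threshold on -log10 q 1, and none when absent meant not listed. Under the same alternatives 7 to 10 of the 10 gained regions were called. The Day10 lists are longer and deeper, so these limits for absence are harder to meet at Day10. The numbers for lost and gained regions do not compare like with like. The first lay on chromosome 16 from 97482364 to 97482930. Its fold was 53.0 and 53.2 at Day0 and 9.59 and 10.2 at Day10, with peaks of 545 and 535 bases on the first day and 258 and 267 on the second. At rank 108400 and 100774 it lay just outside the limit of 100000 that defines loss. The deepest fall of the 10 was on chromosome 1 from 14554491 to 14555205, where the fold went from 50.7 and 52.0 to 4.32 and 4.18 and the peak shrank from 714 and 674 bases to 86 and 76. Here almost nothing of the day 0 peak was left.

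The region on chromosome 5 from 136598895 to 136599492 had a fold of 51.8 and 52.6 at Day0 and 7.2 and 6.51 at Day10. The chromosome 19 region from 41924152 to 41924864 had a fold of 49.5 and 51.4 at Day0 and 8.64 and 10.2 at Day10. The chromosome 15 region from 27418622 to 27419273 went from 48.9 and 50.3 to 6.24 and 7.44, and that from 37607765 to 37608251 from 47.8 and 49.1 to 8.16 and 7.9. In each of these the 2 libraries of a day lay closer to each other than to the other day. The rule that defines loss sets the days apart, so this separation follows from the choice of regions. The chromosome 19 region ranked 122123 and 101225 at Day10, the latter just outside the limit that defines loss. The 4 others, on chromosomes 4, 7 (2 regions) and 17, had Day0 folds between 48.0 and 51.3 and Day10 folds between 5.76 and 8.16.

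Changed regions lay beside others that changed in the same direction. Of the 2048 gained regions with a changed region within 5 kilobases, 89.6% had a gained region as the nearest, while gained regions make up 57.2% of all changed regions. Of the 793 lost regions with a changed region within that reach, 72.6% had a lost one as the nearest, against 42.8% of all. At 100 kilobases the shares were 75.4% for gained and 59.1% for lost regions. Neighbouring regions can belong to one broad open stretch, so they are not independent of each other.

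Lost regions were more often far from any kept region. The median distance to the nearest kept region was 13.0 kilobases for gained regions, 19 for lost regions and 9.45 between kept regions. Distances over 100 kilobases were found for 6.42% of gained, 17.1% of lost and 5.10% of kept regions. Distances within 5 kilobases were found for 28.4% of gained and 22.1% of lost regions. Lost regions thus included more isolated sites than gained ones.

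Counted in blocks of 1 megabase, gains were concentrated in fewer blocks than losses. Of 2289 blocks with at least 1 region, 1611 held a gained and 1901 a lost region, and 1451 held both. The median block had 2 gained and 2 lost regions. The 73 blocks with 15 or more gained regions held 1339 of them, and no block had more than 16 lost regions.

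The block with most gained regions was on chromosome 11 from 113000001 to 114000000, with 45 gained, 3 lost and 31 kept of 104 regions. The number gained there was 22 with the 25000 strongest peaks and absence outside 50000, and 119 with a threshold on the authors' -log10 q in place of equal numbers. It held 39 and 40 of the 50000 strongest peaks at Day0 and 100 and 94 at Day10. Of the blocks with at least 20 regions it also had the highest share gained, 43.3%. Its best-ranked gained region, from 113111966 to 113113015, was absent from both Day0 lists, and the Day10 libraries placed it at rank 1034 and 2756 with a fold of 43.7 and 41.4. The next block with many gains was also on chromosome 11, from 117000001 to 118000000, with 31 gained and 1 lost of 131 regions. On chromosome 5, the block from 113000001 to 114000000 had 30 gained and 2 lost of 103, and its strong peaks numbered 64 and 61 at Day0 and 96 and 89 at Day10. These blocks were chosen by their gained regions, so the higher Day10 numbers follow from the choice.

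The block with most lost regions was on chromosome 5 from 38000001 to 39000000, with 16 lost and 4 gained of 57 regions. It held 51 and 48 of the strongest peaks at Day0 and 30 in each Day10 library. The highest share lost was on chromosome 6 from 36000001 to 37000000, where 12 of 21 regions (57.1%) were lost, none was gained and 2 were kept. The number lost there was 5 with the 25000 strongest peaks and absence outside 50000, 8 with a common fold of 15 for presence and 8 for absence, and 1 when absent meant not listed. The best-ranked of these 12, from 36808738 to 36810052, had a fold of 42.5 and 43.9 at Day0 and 6.24 and 6.51 at Day10. On chromosome 6, the block from 117000001 to 118000000 had 14 lost and 2 gained regions. On chromosome 12, that from 104000001 to 105000000 had 14 lost and 3 gained. These blocks were chosen by their lost regions in the same way.

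**Figure D3:**
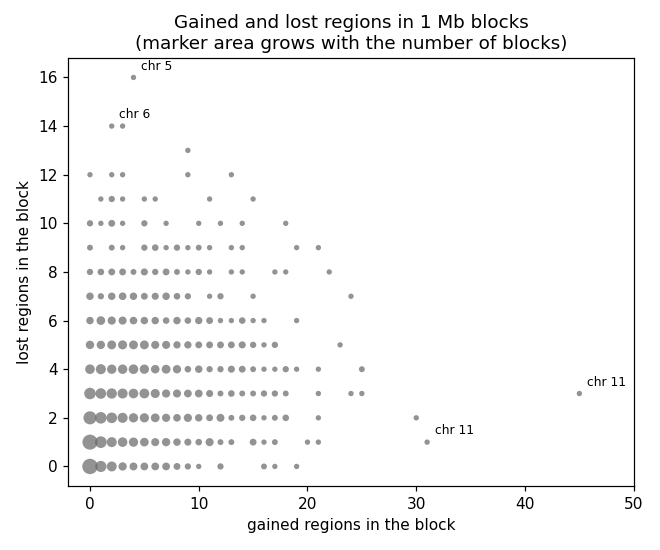
Gained regions (horizontal axis) and lost regions (vertical axis) in each 1 megabase block, with larger markers where more blocks share a value. The block on chromosome 11 with 45 gained regions stands apart to the right, and the block on chromosome 5 with 16 lost regions is at the top.

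Gained regions outnumbered lost ones on 17 of 20 chromosomes, and on 10 of 20 when absent meant any rank past 50000. The ratio was highest on chromosome 11, with 651 gained and 343 lost (1.90), and on chromosome 8, with 509 and 288 (1.77). On chromosome 3 it was turned, with 260 gained and 365 lost (0.712), as on chromosome X, with 119 and 158 (0.753), and on chromosome 18, with 182 and 188 (0.968). The share of each library's 50000 strongest peaks, which also make the calls, moved the same way on chromosomes 11 and 3 but not on every chromosome. Chromosome 11 held 7.52% and 7.64% of them at Day0 and 8.04% and 7.88% at Day10. Chromosome 3 held 4.38% and 4.31% at Day0 and 3.85% and 3.90% at Day10. Chromosome 10 had 425 gained and 345 lost regions, yet held 5.07% and 5.13% at Day0 and 4.95% and 4.86% at Day10. Both Day10 shares lay above both Day0 shares on 7 of 20 chromosomes (35.0%) and below both on 8 (40.0%). Copy number of the chromosomes at the 2 days was not measured.

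Peaks were wider at day 10 when peaks of equal rank were compared. The 5000 strongest peaks had median widths of 981 and 989 bases in the Day0 libraries, against 1299 and 1352 in the Day10 libraries. Peaks ranked 40001 to 50000 had median widths of 359 and 361.5 bases on the first day and 427 and 445 on the last. In all 6 rank classes both Day10 medians lay above both Day0 medians. Of the 29742 kept regions, 15344 (51.6%) had a wider best peak in both Day10 libraries than in both Day0 libraries and 6270 (21.1%) a narrower one. The authors' fold moved the other way: it was lower in both Day10 libraries in 19139 kept regions (64.4%) and higher in 5221 (17.6%). By rank the kept regions were more evenly divided, with 10554 (35.5%) placed lower in the order in both Day10 libraries and 11600 (39.0%) placed higher. The Day10 libraries were deeper, and the part of depth in these widths and folds was not tested.

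**Figure D4:**
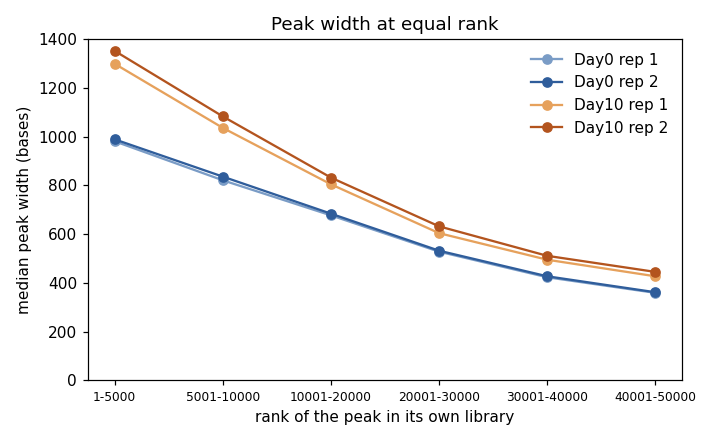
Median peak width in bases, for peaks in 6 classes of rank within their own library, 1 line per library. The Day10 lines lie above the Day0 lines in every class, by the widest margin among the 5000 strongest peaks.

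The Day10 lists also held many more very wide peaks. Peaks of 3 kilobases or more numbered 61 and 63 at Day0 and 439 and 538 at Day10, and peaks of 5 kilobases or more 4 and 3 against 69 and 80. Merged over the Day10 libraries, 363 stretches were that wide, 3 kilobases or more, in both. At Day0, listed peaks covered a median of 72.3% and 71.7% of their bases, and 338 of them (93.1%) held one of the 50000 strongest peaks in both Day0 libraries. Most were thus places already open in part at day 0, and 30 of the 363 were less than 25% covered in both Day0 libraries. All 363 were chosen by their Day10 width, so lower coverage at Day0 follows in part from the choice. Stretches wide at Day0 were not taken in the same way.

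The stretch that changed most among the widest was on chromosome 15 from 97871040 to 97888515. At Day0 it held 3 peaks in each library, the widest of 403 and 402 bases, which covered 4.42% and 4.25% of its bases. At Day10 listed peaks covered 99.8% of it in both libraries, as 2 peaks in replicate 1, the wider of 13807 bases, and as 1 peak of 17443 bases in replicate 2. Its best peak had about the same fold on both days, 28.5 and 28.3 at Day0 and 27.8 and 28.4 at Day10. The rule by rank therefore counts it as kept, although nearly all of its bases were covered only at Day10. It was picked for this contrast from stretches chosen by their Day10 width. In the Day3 libraries, which are not part of the comparison, 18.2% and 18.7% of its bases were covered.

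The widest stretch of all by its narrower Day10 peak, on chromosome 15 from 76070600 to 76087054, was covered to 54.3% and 53.5% at Day0 by 11 and 10 separate peaks. At Day10 it held 4 peaks and 1 peak, the widest of 15237 and 16455 bases. The stretches on chromosome 19 from 5888413 to 5899751 and on chromosome 17 from 26721774 to 26729973 were already covered to between 87.2% and 92.3% at Day0. On chromosome 5, the stretch from 33844472 to 33848709 was free of listed peaks in both Day0 libraries and was covered to 100% and 95.9% at Day10. On chromosome 8, the stretch from 106976158 to 106983198 had no listed peak in Day0 replicate 1 and 1 peak of 90 bases in replicate 2, and peaks of 7041 and 6412 bases at Day10. These 2 were chosen as the least covered at Day0 among the stretches wide in both Day10 libraries, so the contrast follows from the choice. The part of depth in it was not tested.

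**Figure D5:**
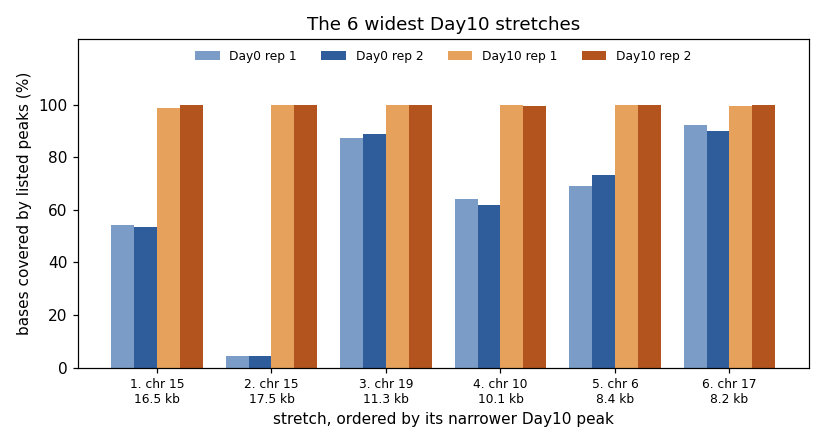
Percent of bases covered by listed peaks in each of the 4 libraries, for the 6 stretches with the widest Day10 peaks. The second stretch, on chromosome 15, goes from 4.42% and 4.25% at Day0 to 99.8% at Day10, while the others were covered to more than 53% at Day0.

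The size of the change was then tested in the 59345 regions with a listed peak in all 4 libraries. These hold 1995 of the 8398 gained regions and 4959 of the 6284 lost regions, so increases and decreases are not covered alike. Log2 of the authors' fold was scaled to equal quantiles and fitted with limma, a linear model with variances shared across regions. With a Benjamini-Hochberg adjusted p under 0.05, 18517 regions were higher at Day10 (31.2%) and 19797 were lower (33.4%). Without any scaling there were 14098 higher and 30305 lower, and the median log2 fold of all tested regions fell by 0.24 from Day0 to Day10. Among regions within the 100000 strongest on both days there were 15258 higher and 15068 lower. Which direction was more frequent thus depends on the scaling, the regions tested and the libraries used, and values below are relative to equal quantiles. The counts also depend on having both libraries: without Day10 replicate 1 there were 10237 higher and 13078 lower, and without Day10 replicate 2 there were 10019 and 12825. Without Day0 replicate 1 there were 12623 higher and 11884 lower, and without Day0 replicate 2 there were 12535 and 11797, so that higher regions were then the more numerous. With replicates this close, the test says that the libraries differ and measures only the spread between them.

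The kept regions hold changes that the ranks do not call. Among the 29742 kept regions, 7090 (23.8%) were higher and 5566 (18.7%) lower by limma, shares below those of all regions tested. Their median absolute difference was 0.20 on the log2 scale, and 213 were higher and 130 lower by 1 or more. The 3 kept regions with the largest increase, named after their values were seen, included one on chromosome 17 from 13064702 to 13066134. Its fold was 19.8 and 19.1 at Day0 and 48.5 and 49.3 at Day10, a log2 difference of 1.58 ± 0.07 (SE; limma adjusted p 7.7e-05). The largest decrease among kept regions was on chromosome 8 from 95640675 to 95641952, with a fold of 57.7 and 56.0 at Day0 and 18.2 and 19.1 at Day10. Its log2 difference was -1.37 ± 0.07 (SE; limma adjusted p 9.29e-05).

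All 1995 gained regions tested were higher and all 4959 lost regions tested were lower, which the rank rule fixes, since it uses the same folds. Differences in gained and lost regions are therefore given as descriptions, with no p-value. The largest increases over all tested regions started from Day0 folds near the lowest listed. On chromosome 4, the gained region starting at 114635966 had the largest log2 difference, 3.69. The chromosome 8 region from 127432671 to 127434639 had a fold of 4.08 and 4.04 at Day0 and 40.8 and 40.9 at Day10. The chromosome 11 region from 113918738 to 113921901, in the block with most gains, went from 4.08 and 5.2 to 42.7 and 39.5. The others were on chromosome 1 from 85684038 to 85685002 and on chromosome 5 from 113787747 to 113789047, with log2 differences of 3.59 and 3.42. The largest decrease was that on chromosome 1 starting at 14554491, with a log2 difference of -3.29.

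The 4 next largest decreases had log2 differences from -3.17 to -3.11. The chromosome 9 region from 41168448 to 41168981 had a fold of 40.8 and 41.6 at Day0 and 3.36 and 4.18 at Day10. The regions on chromosome 13 from 103523445 to 103523969 and on chromosome 5 from 30734701 to 30735090 fell from Day0 folds of 37.9 to 43.7. The fifth, on chromosome 11 from 113425132 to 113425752, is one of the 3 lost regions in the block with most gains. Its fold was 31.5 and 32.9 at Day0 and 3.36 and 2.79 at Day10. A strong loss thus stood among the 45 gains of that block.

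The 3 strongest regions of the Day0 libraries stayed among the 4 strongest at Day10. On chromosome 1, the one from 24650563 to 24655321 was placed first in both Day0 libraries and 2 and 1 in the Day10 libraries. Those on chromosome 2 from 98496528 to 98497737 and on chromosome 12 from 97028146 to 97028621 were placed 2 and 3 at Day0 and between 2 and 4 at Day10. These 3 were named after their values were seen, and another region was placed first in Day10 replicate 1. No list of problem regions for this build was used here, so such regions were not removed.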

How the data were processed

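The deposited data are narrowPeak lists, 1 per library, so peaks were listed by the authors for each library alone. Each row holds the authors' integer score, fold ratio over background, -log10 p, -log10 q and summit offset, as deposited. Trim Galore and the build mm10 are named in the submitters' processing notes, but scaffold names in the lists belong to GRCm39. For the aligner, the peak caller, their settings and any shift for the Tn5 cut, nothing is given in the sources used here. Groups and replicate numbers came from the sample titles.

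Peaks on 20 chromosomes were ordered by the authors' fold, ties by -log10 p and then position. The 50000 strongest of each library were merged where they overlapped, and the best peak overlapping a region by 1 base gave its rank, fold and width. Depth was estimated from the deposited folds, which are evenly spaced: the background they give was divided by the smallest width. Pileups were recovered from the same spacing. Total reads were not used here. limma 3.58.1 (R 4.3.3) tested log2 fold, and numpy 2.4.6 and pandas 2.3.3 did the rest.

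Regions named were the 10 gained and 10 lost with the best poorer rank and the 5 highest and 5 lowest by limma. Blocks, wide stretches and kept regions were chosen after their values were seen. The members and lists were chosen with earlier results of these data known. The planned gene lists, gene starts and motifs need an annotation or genome of GRCm39 and were not run.

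Both procedures were tested on simulated data with known answers and found every change put in. Those changes were large beside the simulated noise, so finding them says little about smaller changes. The simulated days had no difference in depth, and peaks made lost were removed from the list entirely. The simulation therefore cannot show how the rank rule behaves with lists as unequal in depth and length as these. Quantile scaling called more unchanged regions than median centring did in each set, with a false share above the adjusted p threshold in every set. Where in the fold range these calls lay was not recorded. The limma counts may therefore hold more false calls than the threshold implies.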

Additional observations from a re-analysis of the deposited data

How the results depend on the processing

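The counts of regions follow the limits chosen. With the 25000 strongest peaks and absence outside 50000 there were 3708 gained, 3121 lost and 14984 kept regions. When absent meant any rank past 50000, 14363 regions were gained and 13906 lost, and more gains than losses on 10 chromosomes. When absent meant not listed at all, 958 were lost and 5767 gained, and none of the 10 named lost regions was called. With a -log10 q of 10 for presence and 5 for absence in place of equal numbers there were 44826 gained, 11526 lost and 67639 kept regions, and 1 of the 10 named lost regions was called. With a common fold of 15 and 8 there were 12710 gained and 6250 lost, and 6 of the named lost regions were called. Gained regions outnumbered lost ones under every alternative run, by 457 to 33300. All alternatives share the greater depth of the Day10 libraries, and the part of depth in this excess was not tested. An overlap of 50%, windows around summits and adding chromosome Y kept all counts of gained, lost and kept regions within 1.5 times. Leaving out 1 library gave 8735 to 9766 gained, 6784 to 7228 lost and 30535 to 30922 kept regions.

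By limma, 30305 regions were lower without scaling. Leaving out 1 library gave 10019 to 12623 higher and 11797 to 13078 lower regions, with the lone library assumed to vary like the others. The replicate block gave 17932 higher and 19307 lower. The labels state no pairing of the libraries by replicate number. The correlation of the difference between replicates 1 and 2 at Day0 with that at Day10 was 0.0058 across regions. This shows no shared replicate effect in the folds, and cannot decide whether the cultures were paired. The 10 regions named by limma kept their direction in all 80 values, but all 10 are gained or lost regions, whose direction the rank rule fixes. The gene, start and motif alternatives were not run. Low depth limits which weak Day0 peaks could be listed.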
